A study of Homo sapiens with 6 samples.

Results

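The 34 genes followed here make cholesterol, control its synthesis through the SREBP system, or take up, move and store it. They were picked by name from known roles, without a threshold on measured values but with earlier results of these data known, and all 34 were among the 31164 genes of the table. Of these, 7 act in the mevalonate pathway, 3 between farnesyl diphosphate and lanosterol, and 8 in the late sterol steps. Another 10 belong to SREBP and liver X receptor control, and 6 to uptake and transport.

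Cholesterol is built from acetyl-CoA through mevalonate, isoprenoid diphosphates, squalene and lanosterol. When sterols run low in the endoplasmic reticulum, the escort protein SCAP carries the SREBP precursors to the Golgi, where a pair of proteases frees the active transcription factor. INSIG proteins hold SCAP and SREBP back when sterols are plentiful, and liver X receptors switch on sterol export genes. Cholesterol that enters by endocytosis leaves the lysosome through NPC2 and NPC1.

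The libraries were poly-A RNA from cells labelled HT29, a human colorectal cancer line, grown in serum-containing medium without treatment. In 3 libraries (shHMGA1) the cells carried a knockdown, by short hairpin RNA as the titles have it, of HMGA1, an architectural protein of chromatin, and 3 (shNC) are controls whose genotype is labelled WT. The labels give neither the number of hairpins or clones nor separate cultures, so a p-value here speaks of library-to-library spread, perhaps technical only. HMGA1 stood at 465, 565 and 508 FPKM (fragments per kilobase of transcript, scaled to library depth) in shHMGA1, against 785, 810 and 854 FPKM in shNC. The groups did not overlap (log2 fold change -0.67, SE 0.08, limma adjusted p = 0.00180).

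The label HT29 was checked against 12 epithelial and gut genes. EPCAM stood at 194 to 272 FPKM, KRT8, KRT18 and KRT19 were far above that, and CDX2 was at 7.12 to 8.97 FPKM over the 6 libraries. KRT20 was at 0.84 to 1.14 FPKM and CDH1 at 33.6 to 38.6 FPKM. CDX1, CDH17, VIL1, CEACAM5 and GPA33, gut genes of the same list, lay between 0 and 0.22 FPKM in every library of both groups. These 5 defining markers were thus absent or nearly so, and the cells are called by their label only. Of 13 markers of other cell types in the table, 2 to 5 were at 0 in shHMGA1 libraries and 4 to 6 in shNC libraries. Their summed level was 9.90 to 14.2 FPKM in shHMGA1 and 12.8 to 13.6 FPKM in shNC, most of it COL1A1. COL3A1, a fibroblast collagen in the same list, was at 0.95, 0.81 and 0.91 FPKM in shHMGA1, against 0.18, 0.18 and 0.17 FPKM in shNC, without overlap. The part of these genes in the results was not tested.

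The libraries differed in 2 further ways. Mitochondrially encoded genes took 12.5, 8.94 and 8.50% of all FPKM in shHMGA1, against 13.5, 11.4 and 11.9% in shNC. The library shHMGA1 replicate 1 was the one with the most genes at 0 (7116, against 5747 to 6851 in the others), and its mitochondrial share lay within the shNC range. With mitochondrially encoded genes left out of the scaling, 6 of the 34 genes were called higher and 4 lower, against 7 and 3 with them. Each library was set against shNC replicate 1 over genes at 0.1 to 0.5 FPKM in both, and the commonest ratio was read. It was 1.15 to 1.28 for the shHMGA1 libraries and 1.09 and 1.21 for the other shNC libraries. Taken as the relative worth of 1 read, these ratios put the depths at one order. Results that rest on shHMGA1 replicate 1 are given with and without it.

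Enzymes that passed the test were all higher in the knockdown, by at most 0.46 on the log2 scale, and the control and carrier genes that passed were all lower, while most members did not pass. Of the 34 genes, 7 rose and 3 fell at a limma adjusted p under 0.05. That is 20.6% and 8.82% of them, against 16.1% of all 14304 tested genes called higher and 12.3% called lower, so the counts of the set were near the background. The groups did not overlap for 9 members that were higher and 7 that were lower, against 25.4% and 20.5% of all tested genes. All 7 that rose were among the 18 enzymes (38.9% of them), and all 3 that fell were among the 16 others. This split was not tested. The median log2 fold change was 0.24 for the mevalonate enzymes, 0.09 for the squalene steps and 0.03 for the late steps. It was -0.04 for SREBP control and -0.22 for uptake and transport, beside 0.02 for all genes tested. In bulk RNA, fewer cells of a type and less RNA per cell cannot be told apart.

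**Figure D1:**
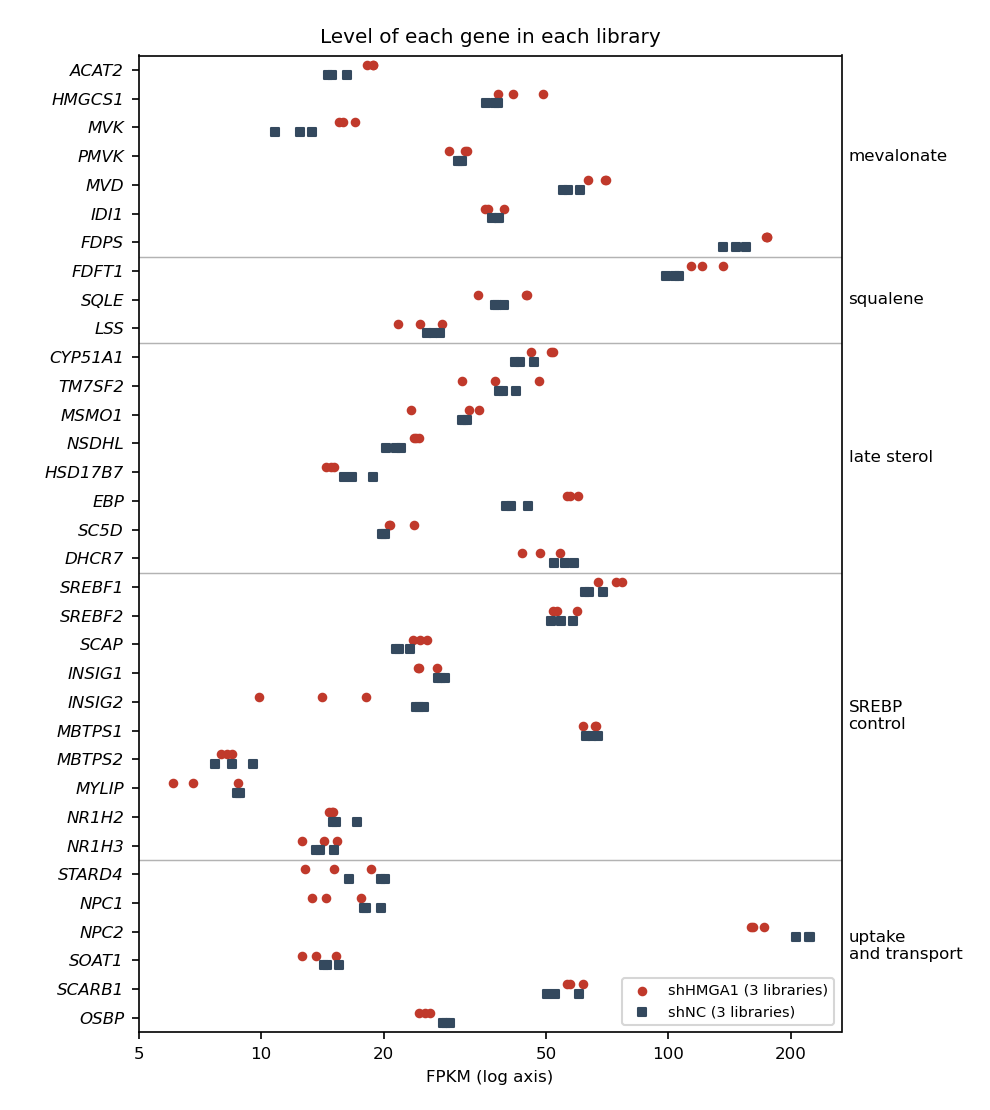
FPKM (log axis) of the 34 genes, with shHMGA1 libraries as circles above shNC libraries as squares, 3 each, grouped by step. The levels span MYLIP, at 6.09 FPKM in one shHMGA1 library, to NPC2, at 222 FPKM in one shNC library, and the groups are separate for 16 genes.

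Of the 7 mevalonate enzymes, 4 rose (57.1%), 0 fell and 3 did not pass. Over all tested genes limma called 16.1% higher and 12.3% lower. ACAT2, the cytosolic thiolase that joins acetyl-CoA units, was at 18.2, 18.8 and 18.8 FPKM in shHMGA1, against 14.9, 14.6 and 16.3 FPKM in shNC. Each shHMGA1 library lay above each shNC library (log2 fold change 0.27, SE 0.06, adjusted p = 0.0159). Mevalonate kinase, MVK, was at 15.8, 17.01 and 15.5 FPKM in shHMGA1 and 12.4, 10.8 and 13.3 FPKM in shNC, again without overlap (0.38, SE 0.08, adjusted p = 0.0165). The decarboxylase MVD, which makes isopentenyl diphosphate, was at 63.6, 69.7 and 70.2 FPKM in shHMGA1, against 55.2 to 60.5 FPKM in shNC (0.24, adjusted p = 0.0259). Farnesyl diphosphate synthase, FDPS, was almost level among the shHMGA1 libraries, at 174, 174 and 173 FPKM. The shNC libraries had 136, 147 and 155 FPKM of it and varied more among themselves (0.25, adjusted p = 0.0160).

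The synthase HMGCS1, which makes HMG-CoA, was at 38.1, 49.1 and 41.6 FPKM in shHMGA1, against 37.4, 38.2 and 35.6 FPKM in shNC (0.20, adjusted p = 0.147). Its groups overlapped, with shHMGA1 replicate 1 among the controls. The neighbouring kinase PMVK averaged 30.8 ± 1.69 FPKM in shHMGA1 and 30.8 ± 0.422 FPKM in shNC (SD, n = 3 each), with a 95% interval of -0.13 to 0.13 for the log2 fold change. The isomerase IDI1 averaged 37.0 ± 2.16 FPKM in shHMGA1 and 37.8 ± 0.822 FPKM in shNC (SD, n = 3 each; interval -0.17 to 0.10). The test therefore passed for steps on both sides of PMVK and IDI1 but not for those steps themselves. Whether the steps differ from each other was not tested. No one of the 4 calls held in all 6 fits that left out a library. ACAT2 lost its call when shHMGA1 replicate 3, or either of shNC replicates 1 and 2, was left out (adjusted p of 0.0594 to 0.0648). MVK was lost only without shNC replicate 1 (0.0513) and FDPS without shHMGA1 replicate 3 (0.0539) or shNC replicate 2 (0.0548). MVD kept its call without shHMGA1 replicate 1 (0.0129) or shNC replicate 3 (0.0346) and lost it without any other (up to 0.0927).

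In the squalene steps, 1 of 3 rose (33.3%), beside 16.1% of all tested genes. Squalene synthase, FDFT1, the enzyme that commits farnesyl diphosphate to sterols, was at 113, 136 and 121 FPKM in shHMGA1, against 98.6, 104 and 106 FPKM in shNC. The groups did not overlap (log2 fold change 0.26, SE 0.07, adjusted p = 0.0349), but the call held only without shHMGA1 replicate 1 (0.0151) and was lost when any other library was left out (0.0622 to 0.111). The epoxidase SQLE was at 33.98, 44.7 and 44.9 FPKM in shHMGA1, against 37.6, 39.4 and 37.9 FPKM in shNC (0.09, adjusted p = 0.550). One shHMGA1 library was below all controls and the others above all of them. Lanosterol synthase, LSS, had one shHMGA1 library above the controls and the others below them, with 21.7, 27.9 and 24.6 FPKM in shHMGA1 and 25.5, 27.5 and 26.5 FPKM in shNC (-0.10, adjusted p = 0.418).

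Of the 8 late enzymes, 2 rose (25%), 0 fell and 6 did not pass. Over all tested genes limma called 16.1% higher and 12.3% lower. The isomerase EBP, which shifts a ring double bond, was at 60.1, 56.5 and 57.2 FPKM in shHMGA1, against 39.8, 41.1 and 45.2 FPKM in shNC. The lowest shHMGA1 library exceeded the highest shNC library by more than either group's range (0.46, SE 0.06, adjusted p = 0.00310), and EBP was called with any one library left out (at most 0.0184). The decarboxylase NSDHL was at 23.8, 24.4 and 24.02 FPKM in shHMGA1 and at 20.2, 21.4 and 22.1 FPKM in shNC. This difference was the smallest called among the 7 (0.17, adjusted p = 0.0480), and it was lost when any one library was left out (0.0557 to 0.163), and in 7 of 11 alternatives that kept all libraries (other filters, scalings, pseudocounts and fits).

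The other late steps had fold changes of either sign that did not pass. The demethylase CYP51A1 was at 45.9, 52.1 and 51.5 FPKM in shHMGA1, against 43.2, 46.7 and 41.97 FPKM in shNC (0.18, adjusted p = 0.0915). The ketoreductase HSD17B7 was below the controls in each shHMGA1 library, at 14.8, 14.4 and 15.1 FPKM against 15.98, 16.7 and 18.8 FPKM in shNC (-0.20, adjusted p = 0.0726). Its transcribed pseudogene HSD17B7P2 had 1.33 to 1.78 FPKM in shHMGA1 and 1.38 to 1.84 FPKM in shNC, so some reads could be shared. DHCR7, which makes cholesterol from its last precursor in one branch, averaged 48.8 ± 5.30 FPKM in shHMGA1 and 55.5 ± 3.09 FPKM in shNC (SD, n = 3 each; -0.19, adjusted p = 0.139), and was called lower only without shHMGA1 replicate 2 (0.0458). The methyl oxidase MSMO1 was at 23.3, 34.3 and 32.3 FPKM in shHMGA1 and 31.1 to 31.9 FPKM in shNC, and the C14 reductase TM7SF2 at 31.1, 48.2 and 37.5 FPKM in shHMGA1 and 38.4 to 42.2 FPKM in shNC. In both, the spread among shHMGA1 libraries was wider than that among controls (-0.09, adjusted p = 0.649 for MSMO1, and -0.06, adjusted p = 0.793 for TM7SF2). SC5D, the lathosterol oxidase, was at 20.6, 23.8 and 20.7 FPKM in shHMGA1 and 19.96, 20.2 and 19.8 FPKM in shNC (0.11, adjusted p = 0.261). Across all 18 enzymes limma called 0 lower, with 1 lower at an unadjusted p under 0.05 and 0 lower in the authors' deposited table. Over all genes limma called 12.3% lower, 2598 of 14304 were lower at an unadjusted p under 0.05, and the authors' deposited table called 16.7% lower. HSD17B7 was called lower when mitochondrially encoded genes were left out of the scaling (adjusted p = 0.0419). In the authors' deposited table the log2 fold change was -0.078 for HSD17B7 and -0.055 for DHCR7.

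**Figure D2:**
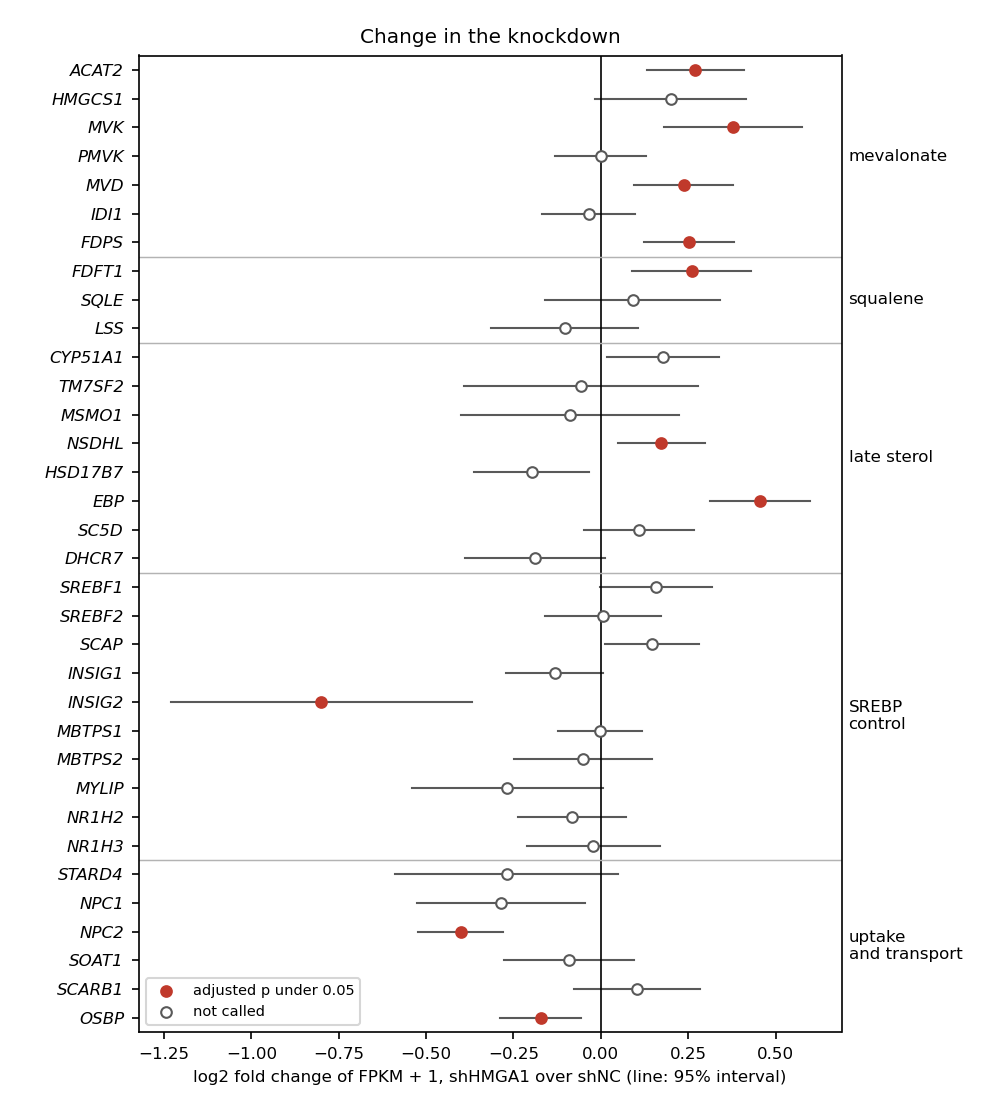
Log2 fold change of FPKM + 1, shHMGA1 over shNC, for each gene, with its 95% interval as a line. Filled points are the 7 higher and 3 lower calls at an adjusted p under 0.05, and the filled points left of 0 all lie below the enzymes.

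Among the 10 genes of SREBP and liver X receptor control, INSIG2 fell and the rest did not pass. That is 10% called lower, beside 12.3% of all tested genes. INSIG2, one of the proteins that retain SCAP in the endoplasmic reticulum, was at 18.1, 9.86 and 14.1 FPKM in shHMGA1, against 24.4, 25.1 and 24.03 FPKM in shNC. The controls were nearly level, while the shHMGA1 libraries were all lower and spread widely. The mean was 57.3% of that in shNC (log2 fold change -0.80, SE 0.18, 95% interval -1.23 to -0.37, adjusted p = 0.0185). It was called without shHMGA1 replicate 1 (-0.99, adjusted p = 0.00487) or shHMGA1 replicate 2 (0.0138), and not without any other library (0.0537 to 0.0608) or when no genes were filtered (0.0661).

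INSIG1, which has the same role and is itself an SREBP target, was at 27.1, 24.3 and 24.4 FPKM in shHMGA1, against 27.2, 28.3 and 27.7 FPKM in shNC. The groups were separate by a narrow gap (-0.13, adjusted p = 0.136). Within a library, INSIG1 stood at 1.49, 2.46 and 1.73 times INSIG2 in shHMGA1 and at 1.12, 1.13 and 1.15 times in shNC. This ratio does not depend on library scaling. Its log2 was 0.89 ± 0.37 in shHMGA1 and 0.18 ± 0.0218 in shNC (SD, n = 3 each), a difference of 0.71 with an exact two-sided permutation p of 0.1, the smallest that 3 against 3 allows.

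**Figure D3:**
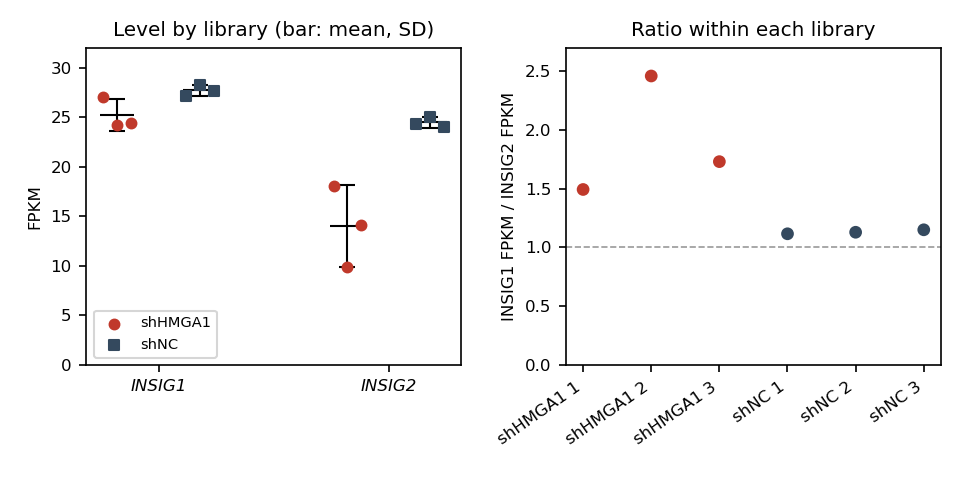
Left, FPKM of INSIG1 and INSIG2 in each library, with mean and SD (n = 3 each), shHMGA1 left of shNC. Right, the ratio of INSIG1 to INSIG2 FPKM within each library, with all 3 shHMGA1 libraries (1.49 to 2.46) above all 3 shNC libraries (1.12 to 1.15).

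Neither gene of the SREBP precursors passed. SREBF1, which favours fatty acid genes, was at 74.5, 67.1 and 76.8 FPKM in shHMGA1, against 63.8, 62.4 and 69.2 FPKM in shNC (0.16, adjusted p = 0.124), with one shHMGA1 library inside the shNC range. SREBF2, the main activator of sterol genes, averaged 55.1 ± 3.99 FPKM in shHMGA1 and 54.8 ± 3.40 FPKM in shNC (SD, n = 3 each), with a 95% interval of -0.16 to 0.17 for the log2 fold change. The log2 of SREBF1 over SREBF2 differed by 0.15 between the groups (exact two-sided permutation p = 0.4). SCAP was at 23.6, 25.6 and 24.6 FPKM in shHMGA1 and at 21.4, 21.8 and 23.2 FPKM in shNC, which did not overlap but did not pass (0.15, adjusted p = 0.0979). The proteases MBTPS1 and MBTPS2 had log2 fold changes of -0.0035 (95% interval -0.12 to 0.12) and -0.051 (-0.25 to 0.15). At this precision a change of the size seen in INSIG2 would lie outside the intervals of SREBF2 and both proteases.

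Around the liver X receptors, NR1H3 was at 12.6, 15.3 and 14.2 FPKM in shHMGA1 and 13.7, 15.1 and 13.98 FPKM in shNC (-0.02, adjusted p = 0.866). NR1H2 averaged 14.9 ± 0.165 FPKM in shHMGA1 and 15.8 ± 1.20 FPKM in shNC (SD, n = 3 each; -0.08, adjusted p = 0.379). Neither receptor gene passed, though the NR1H2 groups were just apart. Their target MYLIP, a ubiquitin ligase, was at 8.75, 6.09 and 6.80 FPKM in shHMGA1, against 8.86, 8.73 and 8.80 FPKM in shNC. Its controls were nearly level and shHMGA1 replicate 1 lay beside them (-0.27, adjusted p = 0.128). Without that library MYLIP was called lower (-0.40, adjusted p = 0.0100). For the whole group limma called 0 higher, with 1 higher at an unadjusted p under 0.05, and the authors' deposited table called 1 higher. Over all genes limma called 16.1% higher, 3348 of 14304 were higher at an unadjusted p under 0.05, and the authors' deposited table called 17.5% higher.

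Of the 6 genes of uptake and transport, 2 fell (33.3%), 0 rose and 4 did not pass. Over all tested genes limma called 12.3% lower. NPC2, the soluble protein that picks up cholesterol in the lysosome, was at 159, 161 and 171 FPKM in shHMGA1, against 206, 222 and 222 FPKM in shNC. The groups were far apart relative to their ranges (log2 fold change -0.40, SE 0.05, adjusted p = 0.00277), and NPC2 was called with any one library left out (at most 0.0181). OSBP, which exchanges cholesterol for a phosphoinositide between the endoplasmic reticulum and the Golgi, was at 25.98, 24.4 and 25.3 FPKM in shHMGA1, against 28.5, 29.02 and 28 FPKM in shNC. It did not overlap (-0.17, SE 0.05, adjusted p = 0.0392), but was called only without shHMGA1 replicate 1 (0.0299) when a library was left out (otherwise 0.0725 to 0.128). It was also lost under rescaling to equal totals (0.0611) and with no mean-variance trend (0.0589).

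NPC1, the membrane partner of NPC2, was at 17.6, 13.3 and 14.4 FPKM in shHMGA1, against 17.9, 19.7 and 18.04 FPKM in shNC. Each shHMGA1 library was below each control, one of them barely (-0.29, adjusted p = 0.0751). The sterol carrier STARD4 was at 18.6, 12.8 and 15.1 FPKM in shHMGA1 and 19.7, 20.1 and 16.5 FPKM in shNC (-0.27, adjusted p = 0.178). SOAT1, which esterifies cholesterol for storage, was at 15.3, 13.6 and 12.6 FPKM in shHMGA1 and 15.5, 14.5 and 14.3 FPKM in shNC (-0.09, adjusted p = 0.412). In all these, shHMGA1 replicate 1 was the highest of its group. The HDL receptor SCARB1 averaged 58.5 ± 2.97 FPKM in shHMGA1 and 54.5 ± 5.17 FPKM in shNC (SD, n = 3 each; 0.10, adjusted p = 0.342). Limma called 0 of the 6 higher, with 0 higher at an unadjusted p under 0.05 and 0 in the authors' deposited table. The shares over all genes were 16.1% higher by limma, 3348 of 14304 at an unadjusted p under 0.05, and 17.5% in the authors' deposited table.

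The library shHMGA1 replicate 1 differed from its partners in opposite ways for the enzymes and for the uptake and transport members. Its HMGA1 level was the lowest of the 3 shHMGA1 libraries (465 FPKM, against 565 and 508 FPKM). What sets this library apart was not tested. This library was the lowest of the 3 shHMGA1 libraries for 12 of 18 enzymes (66.7%), against 40.9% of all tested genes. It was the highest for 5 of the 6 uptake and transport genes (83.3%), against 35.2% of all tested genes. Among the further carriers and storage genes it was the highest for some, such as NCEH1, and the lowest for others, such as LIPA. For SQLE its log2 level minus the shNC mean was -0.17, where the other shHMGA1 libraries had 0.22 each. For MYLIP this difference was -0.0069, where the others had -0.47 and -0.33. Without it, 9 members were higher and 7 lower, while 18.3% and 13.8% of 14319 tested genes were called. HMGCS1 (log2 fold change 0.28, adjusted p = 0.0410), SQLE (0.22, 0.0170) and CYP51A1 (0.23, 0.0286) were then called higher. NSDHL was not (0.0557). INSIG1 (-0.18, 0.0337), MYLIP, STARD4 (-0.40, 0.0361) and NPC1 (-0.39, 0.00946) were then called lower. Leaving out any other single library gave 2 to 5 higher and 1 to 3 lower. The counts were 4 higher and 3 lower without shHMGA1 replicate 2, where OSBP was lost and DHCR7 gained among the lower ones, and 5 and 1 without shNC replicate 3. They were 2 and 1 when shHMGA1 replicate 3, or either of shNC replicates 1 and 2, was left out. Calls over all tested genes fell as well, to 12.2% and 10.1% without shHMGA1 replicate 2, to 11.04% and 8.76% without shNC replicate 3, and to between 7.97% and 8.95% higher and between 6.66% and 7.37% lower in the last 3 fits.

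**Figure D4:**
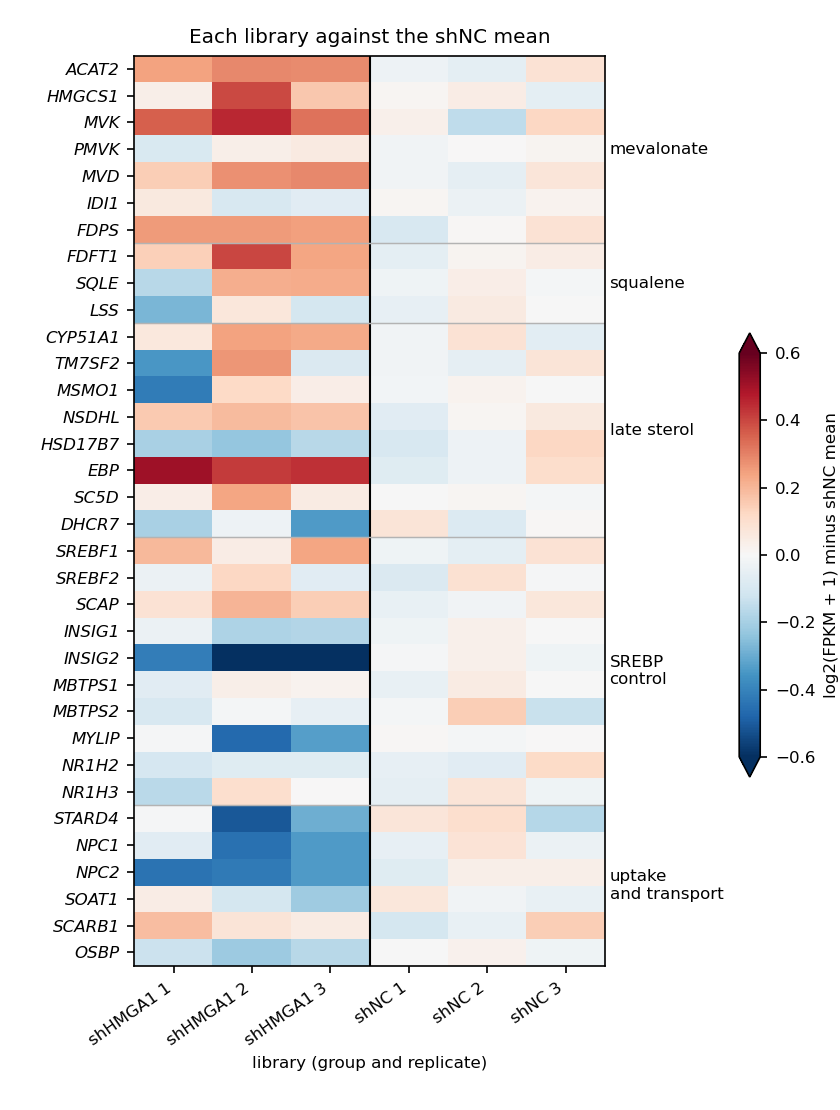
Log2(FPKM + 1) of each gene in each library minus the shNC mean of that gene, shHMGA1 libraries left of shNC libraries, with colours capped at 0.6 either way. INSIG2 passes the cap in shHMGA1 replicates 2 and 3, and the first column is bluer for SQLE, LSS, TM7SF2 and MSMO1 and paler for MYLIP, STARD4 and NPC1 than its neighbours.

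Promoters are shown for the members with the firmest or largest changes, MVK, EBP, INSIG2 and NPC2, and for SREBF2, whose window holds the sterol motif searched here. RefSeq windows on GRCh38.p14, from 250 bases before to 50 after a start, matched 30 of the 34 members with 40 windows (not ACAT2, FDFT1, SQLE and SCARB1). MVK is at chr12:109573544-109573843 and EBP at chrX:48521558-48521857, both on the plus strand. INSIG2 is at chr2:118088221-118088520 and SREBF2 at chr22:41832855-41833154, both plus, and NPC2 is at chr14:74493463-74493762 on the minus strand. Each reads 5′ to 3′ along its gene, and capitals mark CCAAT, the NF-Y motif, in either orientation, or the SREBP motif TCACNCCAC.
MVK: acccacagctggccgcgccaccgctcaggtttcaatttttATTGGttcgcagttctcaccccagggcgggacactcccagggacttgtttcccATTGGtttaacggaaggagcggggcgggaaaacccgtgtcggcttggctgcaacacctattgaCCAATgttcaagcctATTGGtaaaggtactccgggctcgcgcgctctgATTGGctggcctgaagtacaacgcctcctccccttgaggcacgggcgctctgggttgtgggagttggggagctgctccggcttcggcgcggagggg
EBP: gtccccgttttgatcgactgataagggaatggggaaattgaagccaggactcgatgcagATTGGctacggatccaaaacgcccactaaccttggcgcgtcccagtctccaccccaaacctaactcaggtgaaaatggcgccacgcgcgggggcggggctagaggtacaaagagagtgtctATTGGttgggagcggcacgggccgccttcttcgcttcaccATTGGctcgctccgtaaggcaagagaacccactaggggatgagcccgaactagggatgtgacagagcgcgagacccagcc
INSIG2: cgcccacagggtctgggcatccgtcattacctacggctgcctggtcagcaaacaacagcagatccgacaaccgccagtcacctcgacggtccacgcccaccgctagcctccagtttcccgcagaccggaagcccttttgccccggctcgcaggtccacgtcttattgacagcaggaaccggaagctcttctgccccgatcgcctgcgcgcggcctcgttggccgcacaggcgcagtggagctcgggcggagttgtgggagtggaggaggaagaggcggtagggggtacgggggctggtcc
NPC2: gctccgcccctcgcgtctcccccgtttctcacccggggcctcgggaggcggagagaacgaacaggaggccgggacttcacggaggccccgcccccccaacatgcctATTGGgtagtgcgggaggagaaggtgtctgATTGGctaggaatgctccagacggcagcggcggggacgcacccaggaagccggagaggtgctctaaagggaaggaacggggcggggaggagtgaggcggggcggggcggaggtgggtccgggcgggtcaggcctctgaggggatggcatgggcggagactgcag
SREBF2: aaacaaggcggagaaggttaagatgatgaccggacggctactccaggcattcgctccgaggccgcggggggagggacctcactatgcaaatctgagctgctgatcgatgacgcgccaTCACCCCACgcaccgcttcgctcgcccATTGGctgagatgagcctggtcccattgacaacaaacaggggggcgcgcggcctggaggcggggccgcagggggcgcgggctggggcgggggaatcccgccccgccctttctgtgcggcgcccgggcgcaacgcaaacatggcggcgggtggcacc

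CCAAT occurred 5 times in the MVK window and 3 times in that of EBP, 2 times in the NPC2 window printed here, and not in the other NPC2 window or in either INSIG2 window. Over both strands it was in 23 of 40 member windows (57.5%), against 34.6% of all 35116 windows in the same table. Those 35116 windows were not limited to genes expressed here, whereas every member averaged 1 FPKM or more. CCAAT was in 8 of 10 windows of late enzymes and 4 of 14 of SREBP and liver X receptor control. Some genes have several windows, which can overlap, as for SC5D and INSIG2. By gene, the counts were 7 of 8 late enzymes and 4 of 10 control genes. GGGCGG, the Sp1 motif, was in 85% of member windows and 45.0% of all, where the median GC content was 68.2% in member windows and 58.7% in all. CACGTG, an E-box, was in 12.5% of member windows and 7.26% of all. TCACNCCAC was in 2.5% of member windows, that of SREBF2 alone, and 1.13% of all. Only these exact letters were searched, so SREBP sites of another form or outside the windows would be missed. The SREBF2 match starts 133 bases before the start, and a CCAAT match starts 106 bases before it. All motifs were searched on both strands, and none contains another. Windows that hold CCAAT belong to genes that rose, such as EBP, and to NPC2 and OSBP, which fell.

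Other genes of sterol metabolism were read from the same test. Their lists were drawn up with earlier results of these data known, so the shares below describe the lists and test nothing. Of 20 further sterol and isoprenoid enzymes, 4 rose (20%) and 2 fell (10%), near the 16.1% and 12.3% of all tested genes. PDSS1, a subunit of the enzyme that makes the tail of coenzyme Q, averaged 15.4 ± 0.905 FPKM in shHMGA1 and 10.4 ± 0.380 FPKM in shNC (SD, n = 3 each; log2 fold change 0.52, adjusted p = 0.00260). ICMT, which methylates prenylated proteins, fell to 30.6 ± 2.40 FPKM in shHMGA1, against 52.9 ± 1.12 FPKM in shNC (-0.78, adjusted p = 0.000839). The protease ZMPSTE24, which trims prenylated proteins, rose (0.33, adjusted p = 0.00664), and the cytochrome b5 reductase CYB5R3 fell (-0.21, adjusted p = 0.0160), a call lost without shHMGA1 replicate 3 (0.0618) or shNC replicate 1 (0.0584). The 4 and 2 were 2 and 1 without either of those libraries, and 2 rose without shNC replicate 3.

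Of 24 listed genes of sterol-regulated degradation and SREBP traffic, 19 were tested. Among these 5 rose (26.3%) and 2 fell (10.5%), beside 16.1% and 12.3% of all tested genes. AUP1, of degradation at the endoplasmic reticulum, stood at 92.7 ± 1.72 FPKM in shHMGA1 and 65.6 ± 3.90 FPKM in shNC (SD, n = 3 each; 0.50, adjusted p = 0.00170). SEC24D, a coat subunit of vesicles leaving the endoplasmic reticulum, was at 9.71 ± 0.186 FPKM in shHMGA1 and 14 ± 0.460 FPKM in shNC (SD, n = 3 each; -0.49, adjusted p = 0.00188). The chaperone HSP90AB1 (0.17, adjusted p = 0.0238) and the ubiquitin conjugating enzyme UBE2G2 (0.26, adjusted p = 0.0274) rose. HSP90AB1 lost its call when shHMGA1 replicate 3 (0.0993) or one of shNC replicates 1 and 2 (0.0713 and 0.0874) was left out, and UBE2G2 kept its own only without shHMGA1 replicate 1 (0.0215) or shNC replicate 2 (0.0280). The 5 that rose were 1 without shHMGA1 replicate 3 or shNC replicate 1, and 2 when replicate 2 of either group, or shNC replicate 3, was left out. The 2 that fell were 1 in each of these 5 fits.

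Of 33 listed carriers and storage genes 27 were tested, and 10 fell (37%) and 2 rose (7.41%), beside 12.3% and 16.1% of all genes tested. The list was chosen with earlier results of these data known, so this share is a description only. With any library left out 7 to 9 fell, and 1 rose without shHMGA1 replicate 3 or shNC replicate 1. TMEM97, a sterol-binding membrane protein, rose to 39.1 ± 1.87 FPKM in shHMGA1, against 23.9 ± 0.890 FPKM in shNC (SD, n = 3 each; 0.69, adjusted p = 0.000839). The cholesterol ester hydrolase NCEH1 was at 5.99, 5.90 and 5.78 FPKM in shHMGA1 and 9.48, 8.86 and 8.49 FPKM in shNC (-0.53, adjusted p = 0.00261). LAMP2, a lysosomal membrane protein, fell (-0.38, adjusted p = 0.00369), as did the cholesterol sulfotransferase SULT2B1 (-0.53, adjusted p = 0.00452). The lysosomal lipase LIPA, named after its values were seen, was at 21.7, 25.5 and 24.2 FPKM in shHMGA1, against 30.1, 33.9 and 34.6 FPKM in shNC (-0.45, adjusted p = 0.00797). All 5 named here were called with any one library left out. Of 22 listed receptors, lipoproteins and liver X receptor targets, 14 were tested. Limma called 0 of these higher (1 at an unadjusted p under 0.05) and 3 lower (21.4%). The shares over all genes tested were 16.1% higher and 12.3% lower. One of the 3 was the sterol exporter ABCG1, at 1.61 ± 0.243 FPKM in shHMGA1 and 3.16 ± 0.189 FPKM in shNC (SD, n = 3 each). Its log2 fold change was -0.68 (adjusted p = 0.00527).

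The authors' deposited table gives its own fold change for each gene, from the same libraries by a test the sources used here do not name. At its adjusted p under 0.05 it called 8 of the 34 members higher and 5 lower, where it called 17.5% and 16.7% of 16509 genes. Of these, 6 higher and 3 lower were also called by FPKM. The authors' deposited table alone called SREBF1 (0.18, adjusted p 0.00540) and CYP51A1 (0.17, adjusted p 0.0138) higher, and NPC1 (-0.36, adjusted p 0.000827) and MYLIP (-0.34, adjusted p 0.0257) lower. NSDHL was called by FPKM only (0.14, adjusted p 0.199 in the authors' deposited table). The signs differed for 3 members, all uncalled in both. SC5D had 0.11 by FPKM and -0.11 in the authors' deposited table, NR1H2 had -0.08 and 0.0086, and SREBF2 had 0.0068 and -0.012.

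**Figure D5:**
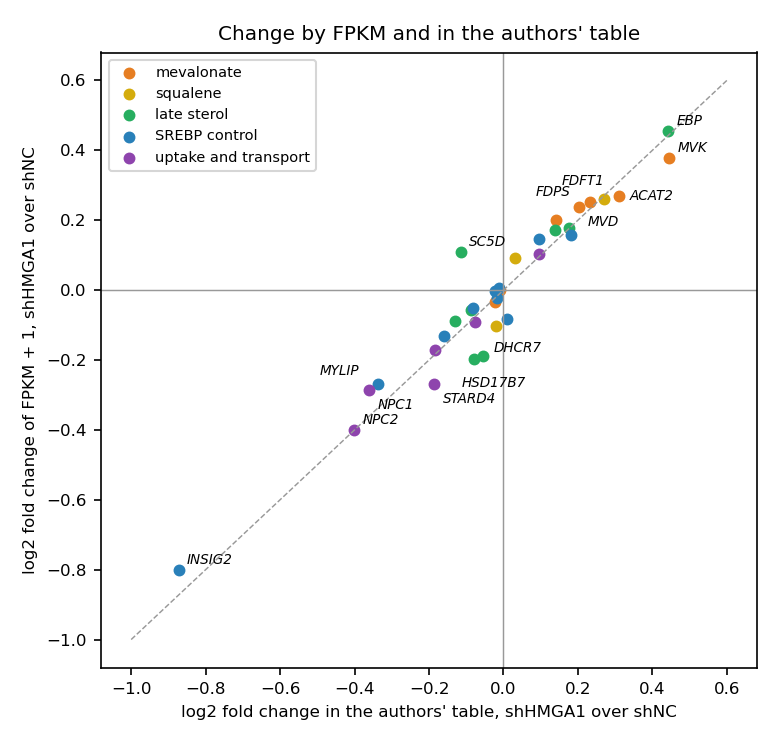
Log2 fold change by FPKM (vertical axis) against that in the authors' deposited table (horizontal axis), shHMGA1 over shNC in both, 1 point per gene coloured by step, dashed line where they are equal. Most points lie near the line from INSIG2 (-0.80 and -0.87) to EBP (0.46 and 0.44), with SC5D off it at 0.11 and -0.11. HSD17B7 (-0.20 and -0.078) and DHCR7 (-0.19 and -0.055) are also off it.

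Positions and neighbours limit how cleanly some members can be read. EBP lies on chromosome X from 48521158 to 48528716, INSIG2 on chromosome 2 from 118088452 to 118110997, MVK on chromosome 12 from 109573255 to 109598117 and NPC2 on chromosome 14 from 74476192 to 74494177 (hg38, GENCODE 29). An exon of 16 of the 34 overlaps another gene. MVK overlaps MMAB, ACAT2 overlaps SOD2 and TCP1, FDPS overlaps RUSC1-AS1, NPC1 overlaps RMC1 and NPC2 overlaps ISCA2, each on the opposite strand. On their own strand, TM7SF2 overlaps VPS51, MBTPS2 overlaps YY2 and RF00019, CYP51A1 overlaps AC000120.2 and AC000120.3, and NPC2 overlaps MIR4709. The sources used here do not say whether reads of such pairs were separated. EBP, INSIG2, NSDHL and OSBP overlap no other annotated exon.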

How the data were processed

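Poly-A RNA of 6 libraries was sequenced on an MGI instrument, per the labels' protocols, and groups come from the sample titles. Per the file headers, the deposited table holds FPKM for each library and 31164 genes, to 2 decimals. Beside these the authors deposited a normalized signal for each group, and their fold change (log2), p-value and adjusted p for each gene. The submitters' processing notes name hg38. The aligner, the counter with its strand setting, the annotation and the authors' test are not stated in the sources used here. Read counts were not used here, and the spread between libraries sets the precision.

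For the test, 1 was added to each FPKM value and log2 taken. Genes averaging 1 FPKM or more over the libraries (14304, all 34 members among them) entered a two-sided limma fit (version 3.58.1, R 4.3.3) with a mean-variance trend, and p-values were adjusted over all of them after Benjamini and Hochberg. Adjusted p-values are from this fit unless the authors' deposited table is named. The fit was also run on simulated data with the same spread for every gene and with larger changes than most called members had. That run therefore does not tell how reliably changes of the sizes reported here are called. Fold changes are shHMGA1 over shNC, and the scale understates the change of low genes. Exact permutation tests used scipy 1.17.1. Members and lists were chosen with earlier results of these data known. All members are named, with up to 4 called genes of each further list, lowest adjusted p first, and some of those are not reported here. LIPA is named beyond this rule, after its values were seen. Members were matched by ID to GENCODE 29 (34 found, 8 in the same version). Alternatives were other pseudocounts (0.1 and 5), filters (none, and a mean of 5 FPKM), scalings (including without mitochondrially encoded genes) and eBayes settings, a replicate block, and leaving out each library.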

Additional observations from a re-analysis of the deposited data

How the results depend on the processing

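Over all alternatives, single-gene results kept direction and side of the threshold in 523 cases, lost a call in 46, gained one in 9 and changed sign in 17. EBP and NPC2 were called in all of them, and MVK in all but the fit without shNC replicate 1. With no filter, 1478 of all genes were called higher, 4 members higher, and 2 higher and 1 lower in the list of degradation and traffic, with INSIG2 lost. Under quantile normalization 4 members were higher, 4 further enzymes lower, 3 of the degradation list higher and 4 lower, and the mevalonate median was 0.18. Both settings lost MVD, FDFT1 and NSDHL. Without mitochondrially encoded genes 1 of that list was lower, 6 members were higher and 4 lower, with HSD17B7 called lower (adjusted p = 0.0419) and NSDHL lost. With no trend 3 of that list were higher and 1 lower. Sign changes were all in uncalled genes near 0. SREBF2 had -0.0057 under median-of-ratios scaling, -0.047 under quantile normalization and -0.018 without mitochondrially encoded genes, and PMVK 0.011 and MBTPS1 0.0078 under rescaling to equal totals. With a library left out, the ranges were -0.051 to 0.052 for SREBF2, -0.027 to 0.044 for PMVK, -0.027 to 0.029 for MBTPS1, -0.12 to 0.022 for MBTPS2, -0.082 to 0.050 for NR1H3, -0.22 to 0.089 for TM7SF2 and -0.19 to 0.078 for MSMO1.

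With a library left out, 1138 to 2626 of all genes were called higher and 952 to 1973 lower, and 2 to 9 members higher and 1 to 7 lower. In the further lists these counts were 2 to 4 and 1 to 3 (enzymes), 1 to 5 and 1 to 3 (degradation and traffic), 0 and 2 to 4 (receptors, lipoproteins and targets), and 1 to 3 and 7 to 9 (carriers and stores). Medians ran from 0.21 to 0.28 (mevalonate), 0.025 to 0.22 (squalene), -0.069 to 0.12 (late), -0.076 to 0.019 (SREBP control) and -0.29 to -0.15 (uptake and transport). The INSIG1 to INSIG2 difference was 0.51 to 0.87 on the log2 scale, and that of SREBF1 to SREBF2 0.076 to 0.27. The cause of these shifts was not tested, beyond the smaller number of libraries. Libraries with the same number did not deviate together (correlations of 0.020, -0.036 and 0.041 for numbers 1 to 3). The labels do not say whether the number pairs libraries. With the replicate block, 6 members were higher and 2 lower, and 1913 and 1495 of all genes, with NSDHL (adjusted p = 0.0851) and OSBP (0.0852) lost. No scaling moved the median of all genes by over 0.1.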
